A study of Mus musculus with 5 samples.

Results

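Lymphoid tissue organizers are stromal cells that build and maintain lymph nodes and other lymphoid tissue by secreting chemokines and survival factors. The genes described here encode products of that programme: the homeostatic chemokines Ccl19, Ccl21a, Cxcl12 and Cxcl13, the cytokines Il7, Tnfsf11 (RANKL) and Tnfsf13b (BAFF), the mucosal addressin Madcam1, the surface glycoprotein Pdpn (podoplanin) and the lysophospholipase Enpp2 (autotaxin). All probe sets carrying one of these symbols in the platform annotation were taken, and for Ccl19 and Ccl21a also probe sets that list several symbols including them. The rule found 9 of the 10 genes, among 18194 named on the array, with 16 of 45101 probe sets. Enpp2 was not analysed here. The probe set of Ccl19 lists 10 symbols and that of Ccl21a lists 9, among them copies and pseudogenes of the same chemokines, so their signal cannot be assigned to 1 gene.

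The values came from 5 one-colour arrays hybridised with RNA from cultures labelled as aortic endothelial cells of C57BL/6J mice. All were taken at 24 h, and the titles mark 3 of them as control and 2 as TNF-LTBR. The titles name TNF, the cytokine tumour necrosis factor, and LTBR, the lymphotoxin beta receptor. The treatment text is shared by all 5 samples and mentions only PBS, so the grouping rests on the titles. No label states which agonists were added or how much. The smooth muscle cells of the series title are not analysed here. Nothing in the labels tells whether replicates are independent cultures, so each p-value reflects array-to-array spread that may be technical.

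In lymphoid organs, lymphotoxin from haematopoietic cells engages LTBR on stroma. The receptor stabilises the kinase NIK (Map3k14), which leads to processing of the Nfkb2 product and to nuclear dimers of RelB and p52, while TNF acts mainly through the faster RelA pathway. Cxcl13, Ccl19, Ccl21 and Madcam1 are textbook targets of the slower arm in lymphoid stroma. The comparison of TNF-LTBR with control arrays addresses whether their transcripts differed in cultures of vessel wall cells.

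The start regions of Cxcl13 and Madcam1 are shown because each holds a sequence known to bind NF-kB dimers. Each window runs from 250 bases before to 50 bases after the start site, from RefSeq on GRCm38.p6. The Cxcl13 window is chr5:95956689-95956988 on the + strand, and its capitals mark GGAGATTT, a core described for RelB and p52 dimers, which began 113 bases before the start. The Madcam1 window is chr10:79664309-79664608 on the + strand, and its capitals mark GGAAAGTCC, the reverse complement of GGACTTTCC from the classical NF-kB site, which began 70 bases before the start.
Cxcl13: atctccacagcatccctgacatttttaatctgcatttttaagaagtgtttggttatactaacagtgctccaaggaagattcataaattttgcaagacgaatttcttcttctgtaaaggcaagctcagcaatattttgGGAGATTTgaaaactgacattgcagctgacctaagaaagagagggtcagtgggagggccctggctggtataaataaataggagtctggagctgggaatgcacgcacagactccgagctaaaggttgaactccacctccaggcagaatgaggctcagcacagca
Madcam1: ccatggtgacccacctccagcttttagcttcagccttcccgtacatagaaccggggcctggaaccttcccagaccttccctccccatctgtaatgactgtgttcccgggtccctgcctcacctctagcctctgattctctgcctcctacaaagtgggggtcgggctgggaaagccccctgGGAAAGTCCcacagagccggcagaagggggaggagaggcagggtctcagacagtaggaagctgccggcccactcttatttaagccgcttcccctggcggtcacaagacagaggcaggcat

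Windows were at hand for 8 member genes, with 9 start sites in all. Each was searched on both strands for 5 motifs, and the same search over 32851 windows of equal length gave the background. GGACTTTCC was found in Madcam1 and in 0.344% of all windows. GGAGATTT was found in Cxcl13 and in 1.06% of all windows, while the related GGAGACTT was in no member window and in 1.39% of all. The general NF-kB consensus, which allows either purine or either pyrimidine at some positions, matched in Madcam1, at 70 and 83 bases before the start, and in 8.46% of all windows; the match at 70 overlaps the GGACTTTCC one. TGANTCA, the AP-1 core, was in both windows of Tnfsf13b, which overlap and share the match, and in 7.81% of all. A match describes letters and is not a measured site.

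The start regions of Ccl21a and its copy Ccl21d are shown because both genes are named on the shared probe set. The Ccl21a window is chr4:42773942-42774241 on the - strand and the Ccl21d window is chr4:41903363-41903662 on the + strand, both on GRCm38.p6. Capitals mark the bases that differ, 2 of 299 compared. The windows of Gm13304 and Gm10591, also named on that probe set, each differed from Ccl21a at 3 of 299 bases. That of Ccl21b, named there too, differed at 199 of 295 bases at the best of the few small shifts tried, without gaps. Larger shifts were not tried, so this does not show that the start regions of Ccl21b and Ccl21a are unrelated. Start regions do not show how alike the transcripts are that the probe set measures. In the RefSeq gene table Ccl19 and Ccl21a are neighbours.
Ccl21a: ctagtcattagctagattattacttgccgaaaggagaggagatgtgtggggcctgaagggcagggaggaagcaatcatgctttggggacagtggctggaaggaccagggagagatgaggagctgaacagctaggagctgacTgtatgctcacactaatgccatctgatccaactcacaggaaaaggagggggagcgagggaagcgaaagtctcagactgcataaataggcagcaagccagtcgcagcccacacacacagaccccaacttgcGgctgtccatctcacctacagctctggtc
Ccl21d: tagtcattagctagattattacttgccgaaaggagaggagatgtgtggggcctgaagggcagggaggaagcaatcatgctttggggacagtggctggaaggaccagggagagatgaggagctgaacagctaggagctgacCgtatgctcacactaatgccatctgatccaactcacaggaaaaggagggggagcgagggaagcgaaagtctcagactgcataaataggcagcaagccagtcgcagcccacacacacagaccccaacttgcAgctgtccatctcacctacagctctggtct

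None of the 16 member probe sets passed the threshold, an adjusted p of 0.05 in limma over 45037 probe sets, and the smallest adjusted p of a member was 1.000. Over the whole array 0% of probe sets passed. At an unadjusted limma p under 0.05 the counts were 0 of the 16 members and 1369 probe sets in all, 3.04%. The group mean was higher in TNF-LTBR for 11 member probe sets and lower for 5, against 51.9% of all probe sets higher. The median member difference was 0.18 on the log2(intensity + 16) scale, beside 0.01 over all probe sets, and member differences ran from -0.36 to 0.62. With 10 groupings of 3 against 2 arrays, the exact two-sided permutation test cannot give a p under 0.1. In bulk RNA, fewer cells of a type and less RNA per cell cannot be told apart.

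The groups did not overlap for 1 member probe set, the dimmest one of Tnfsf13b, which was higher on both TNF-LTBR arrays. Over all probe sets 8.81% lay higher without overlap and 6.85% lower, and 0 members lay lower. For 15 of the 16 member probe sets the range over the 3 control arrays was larger than the difference between group means, as it was for 84.6% of all probe sets. By brightness, 8 member probe sets of 6 genes (Cxcl12, Cxcl13, Il7, Madcam1, Pdpn and Tnfsf13b) were among the 60% of probe sets with the highest mean, above an intensity of about 68.8.

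**Figure D1:**
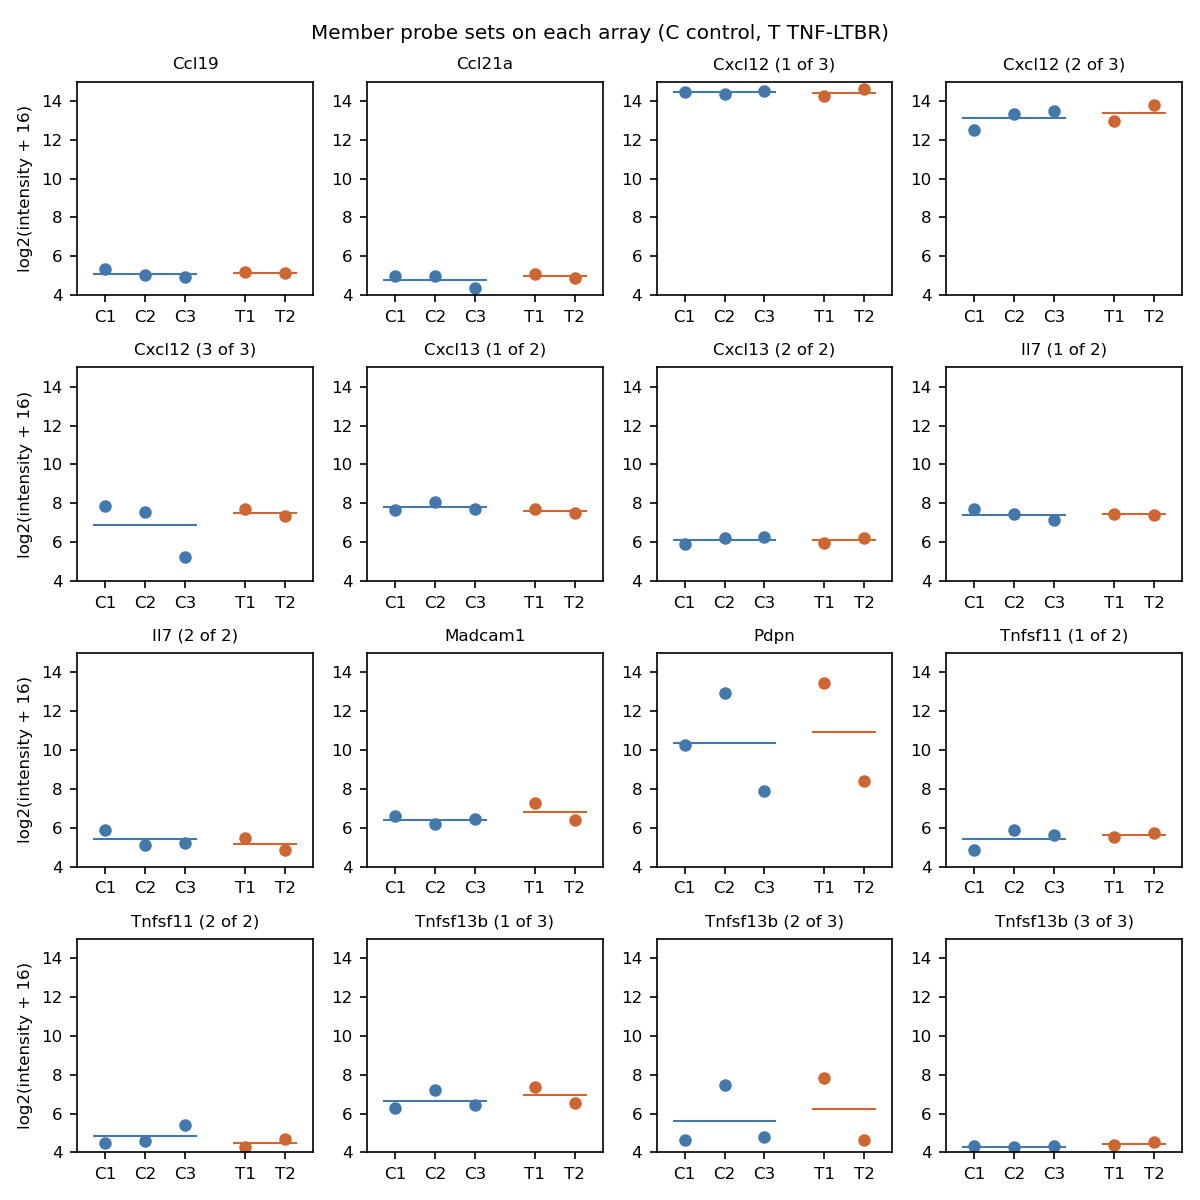
Level of each of the 16 member probe sets as log2(intensity + 16) on the vertical axis for control arrays C1 to C3 (blue) and TNF-LTBR arrays T1 and T2 (orange), with group means as lines; probe sets of 1 gene are numbered from the brightest. Cxcl12 is bright on every array, Ccl19 and Ccl21a sit near the bottom of the scale, and Pdpn spreads over 5.56 log2 units.

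The homeostatic chemokines come first. CCL19 and CCL21 bind CCR7 and guide T cells and dendritic cells into lymph nodes. The Ccl19 probe set had intensities of 24.7, 17.3 and 14.1 on controls 1 to 3, against 20.2 and 18.9 on the TNF-LTBR arrays, always given in replicate order. The Ccl21a probe set had 16, 16.2 and 4.3 in control, against 17.6 and 13.7 in TNF-LTBR. Every one of these values is dim, the groups overlap for both, and neither probe set was among the brighter 60%. The differences were 0.046 with a 95% interval of -0.57 to 0.66 for Ccl19 and 0.20 with -0.51 to 0.91 for Ccl21a (limma). At this signal a change could have been missed, since the added 16 is about as large as the intensities.

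CXCL12 acts on CXCR4 and holds leukocytes and progenitors in stromal niches. Its brightest probe set (1448823_at) had intensities of 22233.2, 21154.9 and 23744.3 in control, against 19662.5 and 24782.7 in TNF-LTBR. These were the highest intensities of any member probe set. TNF-LTBR 1 was the lowest array and TNF-LTBR 2 the highest, and a probe set this bright may respond less than in proportion. The means were 14.45 ± 0.08 (SD, n = 3) and 14.43 ± 0.24 (SD, n = 2), a difference of -0.02 with a 95% interval of -0.40 to 0.36.

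The next probe set of Cxcl12, 1417574_at, had 5785.9, 10336.2 and 11431.4 in control, against 8073 and 14032.4 in TNF-LTBR. The lowest array was control 1 and the highest TNF-LTBR 2, with the other 3 between them. Its difference was 0.27 with an interval of -0.63 to 1.17. The dimmest, 1439084_at, had 219.6, 170.1 and 21.3 in control, against 189.3 and 144.5 in TNF-LTBR. Here control 3 stood alone below the other 4 arrays, and the difference of 0.62 became -0.21 without that array. The 3 probe sets of Cxcl12 therefore gave different orders of the arrays, and none separated the groups.

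CXCL13 attracts B cells through CXCR5 and is the defining chemokine of follicles. Its brighter probe set had intensities of 185.3, 253 and 194.7 in control, against 193.2 and 162.4 in TNF-LTBR. The highest value was a control and the lowest a TNF-LTBR array, and TNF-LTBR 1 lay among the controls. Means were 7.81 ± 0.22 (SD, n = 3) and 7.59 ± 0.16 (SD, n = 2), and the difference of -0.22 had an interval of -0.83 to 0.39 (exact two-sided permutation p 0.5). After quantile normalization or median centring both TNF-LTBR arrays lay below all controls, with differences of -0.23 and -0.25. The dimmer probe set had 43.7, 57.2 and 59.5 in control, against 47 and 57.3 in TNF-LTBR, a difference of -0.02. The Cxcl13 transcript was not detectably higher at 24 h. No probe set on the array passed the adjusted threshold, so a change could have been missed. The upper bounds were 0.39 for the brighter and 0.70 for the dimmer probe set on the log2 scale. Whether the GGAGATTT match bears on these values was not tested.

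The cytokines of the programme sustain lymphocytes and their progenitors. IL-7 supports lymphocytes and lymphoid tissue inducer cells. Its brighter probe set had intensities of 189.4, 159.1 and 122.8 in control, against 158.3 and 152.1 in TNF-LTBR. Both TNF-LTBR arrays lay inside the control range, with means of 7.42 in both groups and an interval for the difference of -0.67 to 0.67. The dimmer one had 42.6, 18.5 and 21.6 in control, against 28.4 and 13.2 in TNF-LTBR, which also overlap, a difference of -0.23.

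Tnfsf11 encodes RANKL, which drives lymph node formation and osteoclasts. Its 2 probe sets were dim. The brighter had 12.5, 43.3 and 33.2 in control, against 30.6 and 37.6 in TNF-LTBR, a difference of 0.20 with an interval of -0.75 to 1.14. The other had 6.4, 8.2 and 26.9 in control, against 3.3 and 9.7 in TNF-LTBR, a difference of -0.36 with an interval of -1.21 to 0.49. The groups overlap on both, and the odd array differs: control 1 is low on the first and control 3 is high on the second.

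Tnfsf13b encodes BAFF, a survival factor of B cells made by stromal and myeloid cells. Its probe set 1460255_at had intensities of 9.3, 158.5 and 12.1 in control, against 214.3 and 9.2 in TNF-LTBR. Control 2 and TNF-LTBR 1 were high, and the other 3 arrays were at or below 12.1. The brightest probe set, 1445251_at, had 62.4, 132.8 and 69.5 in control, against 148 and 76 in TNF-LTBR, with the same pair of arrays on top. The differences were 0.61 with an interval of -2.34 to 3.56 and 0.30 with -0.76 to 1.35. They became -0.98 and -0.12 without TNF-LTBR replicate 1 and 2.21 and 0.71 without TNF-LTBR replicate 2. The third probe set, 1458047_at, had 3.9, 3.3 and 3.8 in control, against 4.9 and 7.1 in TNF-LTBR, the non-overlapping case above. Its difference of 0.16 was spread over intensities under 8 (exact two-sided permutation p 0.1, the smallest possible), and the groups overlapped after quantile normalization or median centring.

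The surface molecules were Madcam1 and Pdpn. MAdCAM-1 is the ligand of integrin alpha4 beta7 on high endothelial venules and marks early organizer cells. Its probe set had intensities of 82, 56.3 and 71.3 in control, against 136.7 and 69.5 in TNF-LTBR. TNF-LTBR 1 stood above the other 4 arrays, and TNF-LTBR 2 lay among the controls. Means were 6.41 ± 0.22 (SD, n = 3) and 6.84 ± 0.59 (SD, n = 2). The difference of 0.42 had a 95% interval of -0.47 to 1.32 and shrank to 0.01 without TNF-LTBR replicate 1, against 0.84 without TNF-LTBR replicate 2. Of the 16 member probe sets, this had the smallest unadjusted limma p, 0.291, with an adjusted p of 1.000.

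Podoplanin marks lymphatic endothelium and the fibroblastic reticular cells of lymph nodes and binds CLEC-2 on platelets and dendritic cells. Pdpn had intensities of 1198.8, 7962.8 and 220.7 in control, against 11151.8 and 328.4 in TNF-LTBR. Control 2 and TNF-LTBR 1 were high, control 1 was between, and control 3 and TNF-LTBR 2 were low. On the log2 scale the means were 10.37 ± 2.54 (SD, n = 3) and 10.94 ± 3.55 (SD, n = 2). The range was 33.7-fold within the controls and 32.4-fold within TNF-LTBR, and the difference between means was 0.57 with an interval of -4.03 to 5.17. Without TNF-LTBR replicate 1 the difference was -1.94, without TNF-LTBR replicate 2 it was 3.08, without control replicate 2 it was 1.87 and without control replicate 3 it was -0.67. The within-group SD of Pdpn ranked 30 among 45037 probe sets, and that of the Tnfsf13b probe set 1460255_at ranked 199.

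**Figure D2:**
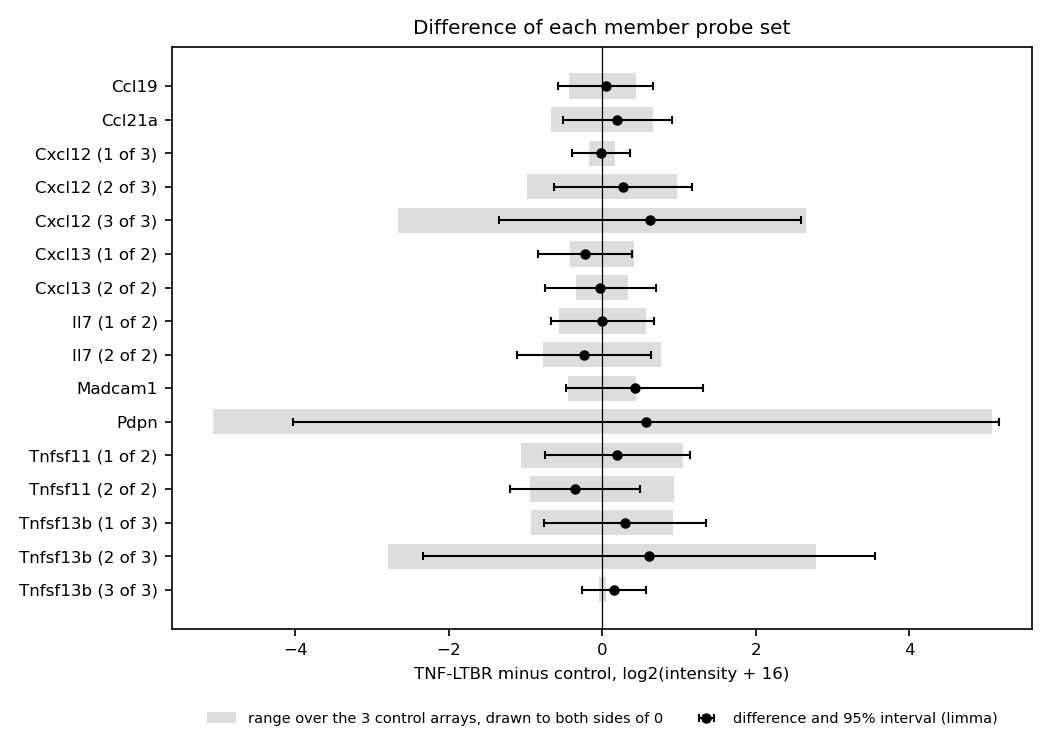
Difference between group means for each of the 16 member probe sets (points, log2 scale, TNF-LTBR minus control) with 95% limma intervals as bars, over grey bars that show the range among the 3 control arrays to both sides of 0. Every interval includes 0, and for 15 probe sets the point lies inside the grey bar.

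**Figure D3:**
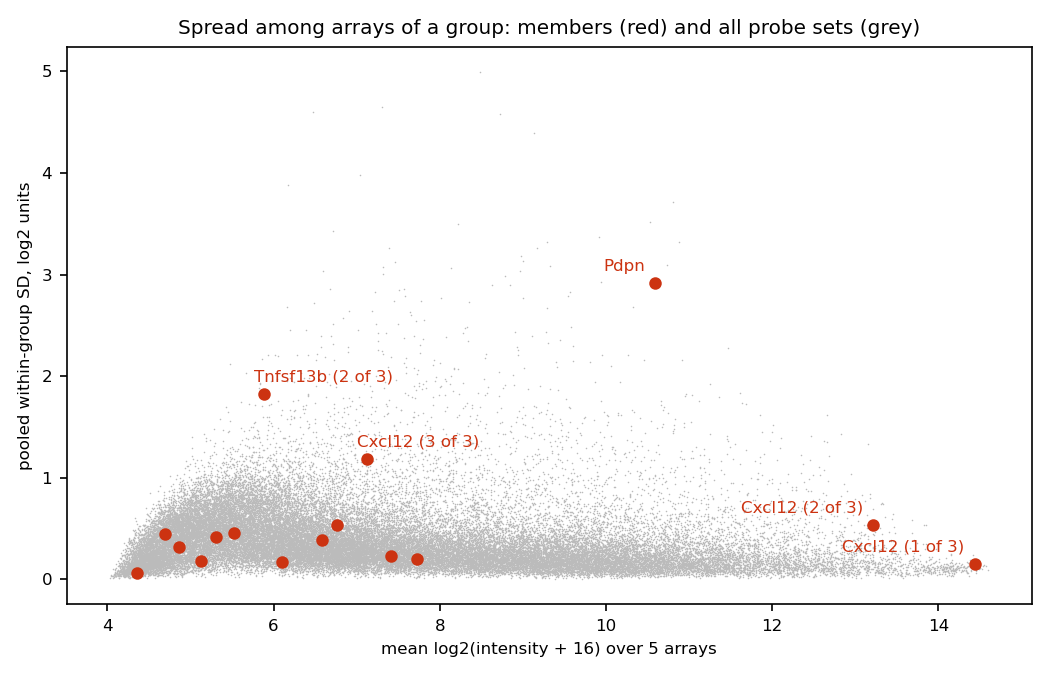
Pooled within-group SD in log2 units (vertical axis) against the mean log2(intensity + 16) over 5 arrays (horizontal axis) for all 45037 probe sets in grey and the 16 member probe sets in red. Pdpn and 1 Tnfsf13b probe set lie far above most probe sets of like brightness, while the brightest Cxcl12 probe set varies little.

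Pdpn and Tnfsf13b thus varied with a pair of arrays that crosses the groups. Control 2 and TNF-LTBR 1 were the 2 highest arrays for 4 member probe sets, those of Pdpn and Ccl21a and both of the brighter Tnfsf13b ones, and the 2 lowest for 1, the brightest of Cxcl12. Over all probe sets the shares were 16.8% and 15.5%. For Ccl21a the gap is within dim values of 4.3 to 17.6. Ranked by the root mean square difference between profiles centred on their own means over 5 arrays, the genes most like Pdpn were Ch25h, Crabp2 and Cpxm1, at 0.31, 0.38 and 0.41 log2 units. Ch25h encodes cholesterol 25-hydroxylase, the first enzyme of a route to oxysterols that position B cells, and had intensities of 264.3, 2630.5 and 90.1 in control, against 3587.2 and 110.1 in TNF-LTBR. For the brightest Tnfsf13b probe set they were Ttc39b, Lhfpl2 and Prrx2 (0.04, 0.04 and 0.05). For Madcam1 they were Numa1, Klk1b24 and Aebp1 (0.06, 0.08 and 0.08), and for Tnfsf11 Pmel, Dtx4 and Mllt10 (0.06, 0.07 and 0.07). With 5 arrays many genes share an order of arrays, so these names describe likeness only.

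The marker lists of other cell types were read on the same pair of arrays. Of 8 macrophage markers 5 had their highest values on control 2 and TNF-LTBR 1. The gap could be small: Cd14 was among them with TNF-LTBR 1 at 831.6 and control 3 at 828.8. The mean log2 level of the macrophage list was 8.39, 8.90 and 7.46 in control, against 9.21 and 7.45 in TNF-LTBR. The tally was 3 of 5 for lymphocyte, 2 of 4 for lymphatic endothelial, 2 of 12 for endothelial, 2 of 8 for smooth muscle and 1 of 8 for fibroblast markers, beside 16.8% of all probe sets. The 3 lymphocyte genes were Cd3e and Cd4, dim on every array at 18.7 to 53.7 and 10.1 to 30.5, and Cd8a at 284.3 to 460. Lyz2, a lysozyme of myeloid cells, had intensities of 1088.5, 3409.2 and 186.3 in control, against 3933.6 and 66.5 in TNF-LTBR. Thy1, a surface protein of fibroblasts and T cells and the 1 fibroblast marker of that tally, had 2583.1, 12215.1 and 154.6 in control, against 8871.2 and 127.9 in TNF-LTBR. Other fibroblast markers had another order of arrays: Lum, a collagen-binding proteoglycan, had 1145.4, 818 and 12967.3 in control, against 1103.8 and 12933.2 in TNF-LTBR, high on control 3 and TNF-LTBR 2. Il6, an inflammatory cytokine on the list of organizer genes and no cell type marker, had 39.1, 1184.6 and 33.5 in control, against 1195.7 and 33.7 in TNF-LTBR. Lyz2, Thy1, Lum and Il6 were picked from their lists after their values were seen, and their part in the pattern of Pdpn and Tnfsf13b was not tested.

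**Figure D4:**
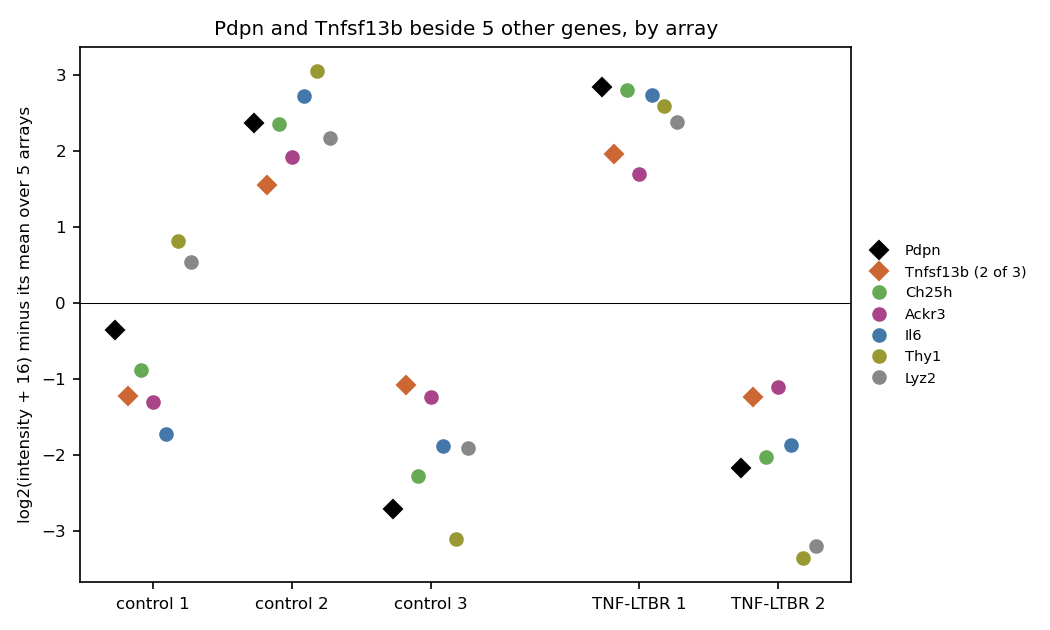
Values of Pdpn and the Tnfsf13b probe set 1460255_at (diamonds) beside Ch25h, Ackr3, Il6, Thy1 and Lyz2 (circles) on each array, as log2(intensity + 16) minus the gene's mean over 5 arrays. All 7 are above their mean on control 2 and TNF-LTBR 1 and below it on control 3 and TNF-LTBR 2. Ch25h was drawn for its likeness to Pdpn, and Il6, Thy1 and Lyz2 were picked after their values were seen. Their shared pattern is therefore no independent evidence, and Lum, which had another order of arrays, is not drawn.

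Markers of the labelled cell type were checked on the same arrays. Of 12 endothelial genes 9 were past the brightness filter. Intensities were 1550.2 to 1858.3 for Eng, 255.1 to 364.2 for Kdr, 174 to 331.4 for Egfl7 and 78.4 to 660.8 for Emcn. Esam ran from 81.9 to 309.3, Pecam1 from 52.6 to 198.9 and Cdh5 from 28.7 to 235.6. Cldn5 was at 17.1 to 172.9 and Tek at 46.9 to 118.8. The intensity of Vwf was at most 7.2 and that of Tie1 at most 45.5. Vwf and Tie1 were thus below the filter on every array, as was Erg, an endothelial transcription factor, which had 68.2, 54.9 and 37.5 in control, against 9.1 and 8.9 in TNF-LTBR. Erg was the 1 endothelial marker of 12 whose groups did not overlap, beside 6.85% of all probe sets lower without overlap. Its difference was -1.45 with a limma p of 0.0031 and an adjusted p of 1.000. The mean log2 level of the list was 6.58 to 7.48 in control, against 7.06 and 6.36 in TNF-LTBR. The group mean was lower in TNF-LTBR for 11 of the 12 genes, with a median difference of -0.32, while 51.9% of all probe sets were higher. All 8 fibroblast genes were past the filter, with a mean level of 11.38 to 12.49 in control, against 12.29 and 12.37 in TNF-LTBR, and Col1a2 lay between 17596.6 and 20691.4. Of 8 smooth muscle genes 4 were past it, among them Acta2 at 2066.4 to 8169.4, with mean levels of 7.10 to 8.36 and of 7.96 and 6.84. Of 4 lymphatic endothelial markers, a cell type where Pdpn is also known, 2 were past it. These were Flt4 at 81.7 to 244 and Reln at 90.4 to 195.8, while Prox1 at 5.8 to 46.9 and Lyve1 at 33 to 91.6 were below it, and the list mean was 6.27 to 6.54 in control, against 6.90 and 6.39 in TNF-LTBR. Of 5 lymphocyte markers 3 were past it, with mean levels of 6.39 to 6.72 and of 6.71 and 6.26. Median intensity of the arrays was 109.7 to 120.5.

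The partners of the members' products were followed through 22 genes for receptors and binding proteins, of which 20 had a probe set with 1 symbol. On the brightest probe set of each, 0 passed the threshold (limma), 1 was higher without overlap and 0 lower, beside 8.81% and 6.85% of all probe sets, and the median difference was -0.04. The non-overlapping gene was Il7r, the IL-7 receptor chain, with intensities of 74.2, 65.4 and 55.6 in control, against 81 and 92.6 in TNF-LTBR, a difference of 0.35. Cxcr4, the receptor of CXCL12, had 142.6, 68.9 and 43.4 in control, against 58.4 and 27.8 in TNF-LTBR, a difference of -0.70 with an interval of -1.94 to 0.54 and overlapping groups. Ackr3, which scavenges CXCL12, had 160.8, 1631.7 and 168.6 in control, against 1389.4 and 186.7 in TNF-LTBR, again high on control 2 and TNF-LTBR 1. Tnfrsf11b encodes osteoprotegerin, the decoy receptor of RANKL. It had 261.2, 809.3 and 1083.2 in control, against 371.9 and 847 in TNF-LTBR, low on the arrays numbered 1 of either group, with a difference of -0.13.

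The pathway upstream and other lymphoid stromal genes were 34 in all, of which 30 were measured. Of these 0 passed the threshold (limma), 9 were higher without overlap and 0 lower, beside the same 8.81% and 6.85%, and the median difference was 0.30. The 9 genes were Map3k14, Nfkb2 and Relb among the signalling genes and Bst1, Chst4, Cxcl16, Pdgfra, Tlx1 and Vcam1 among the stromal ones. Earlier results of these data were known when the lists were drawn up, so the count is not independent evidence. Nfkb2 had intensities of 417.7, 321.6 and 251.5 in control, against 1154.8 and 1201.9 in TNF-LTBR. Relb had 284.2, 181.1 and 240.4 in control, against 335.7 and 400.1 in TNF-LTBR, and Map3k14 had 291.1, 341.2 and 306.5 in control, against 435.7 and 475.7 in TNF-LTBR. Both TNF-LTBR arrays thus lay above every control for these 3 genes of the slower NF-kB arm. Their differences were 1.81, 0.63 and 0.52, with limma adjusted p of 1.000 each. Nfkb2 and Map3k14 have 2 probe sets each, of which only the brightest is given. Chuk and Nfkb1 were on the list but not measured.

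Cxcl16, a membrane-bound chemokine, had 827.8, 642.9 and 1171 in control, against 2147.6 and 2875.8 in TNF-LTBR, a difference of 1.52. Vcam1, an adhesion molecule that marks organizer cells, had 13281.5, 11941.3 and 13359.6 in control, against 14376.2 and 16655.8 in TNF-LTBR. Its difference was 0.27, and values this high may be compressed. Ltbr and Tnfrsf1a overlapped, at 1261.6 to 1929.9 and 2348.1 to 4273.4 in control, with 1716.5 and 1338.4 for Ltbr and 3776.9 and 2571.8 for Tnfrsf1a in TNF-LTBR. The lymphotoxin ligands themselves were dim, with Lta at 8.1 to 36.7 and Ltb at 3.7 to 22.2 over the 5 arrays. Whether the members differed from these genes was not tested, and the values stand side by side.

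**Figure D5:**
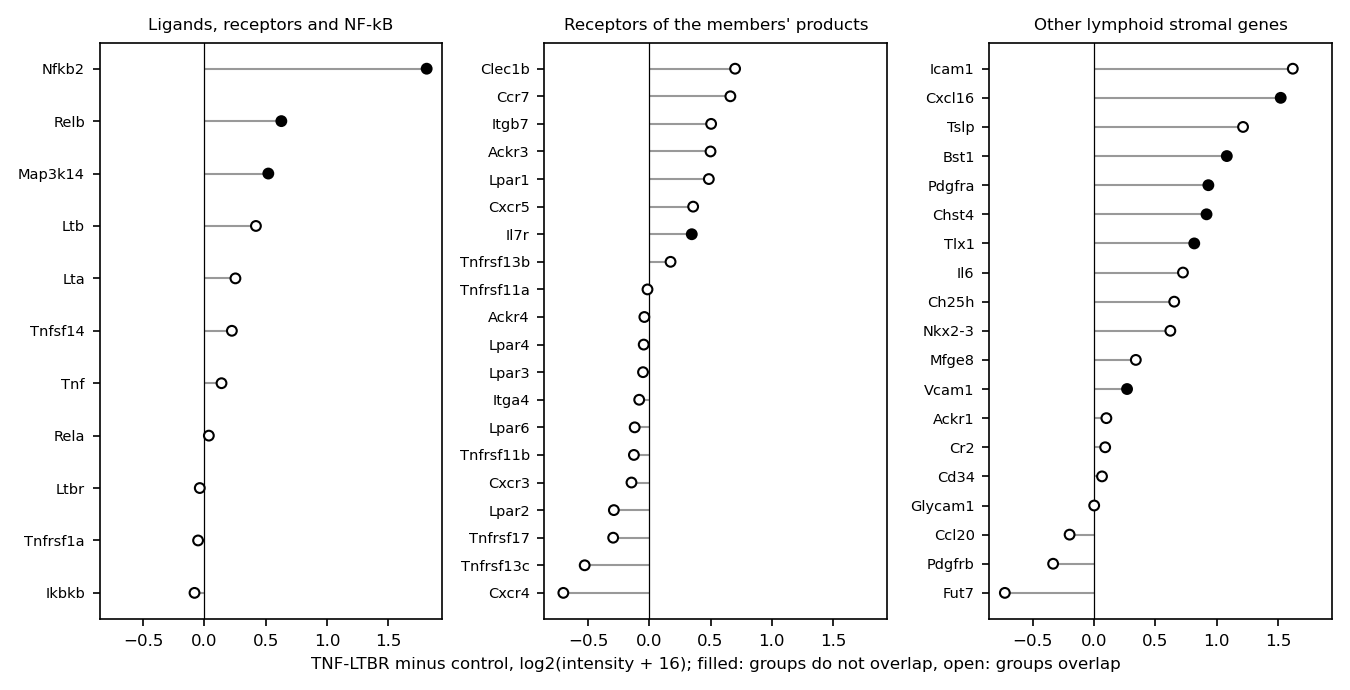
Difference between group means (horizontal axis, TNF-LTBR minus control, log2 scale) for the brightest probe set of each listed gene; filled points mark genes whose groups do not overlap and open points those that do. Nfkb2, Relb and Map3k14 are filled on the left, Il7r is the filled point in the middle, and Cxcl16, Bst1, Pdgfra, Chst4, Tlx1 and Vcam1 are filled on the right.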

How the data were processed

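The authors deposited linear intensities, 1 per probe set and array, made with GCOS 1.4 per the submitters' processing notes. The summary algorithm and scaling target were not given in the sources used here. Symbols came from the platform annotation, in which 34958 probe sets had 1 symbol, 932 several and 9211 none. Members took the rule above; list genes needed 1 symbol and are shown by their brightest probe set.

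Intensities were taken as log2(intensity + 16), which understates changes of dim genes. The 64 array control probe sets were left out, and TNF-LTBR was compared with control over the other 45037 in R 4.3.3 with limma 3.58.1 (lmFit, eBayes with an intensity trend, 3 residual degrees of freedom), two-sided, with Benjamini-Hochberg adjustment and a threshold of 0.05. No brightness filter was applied to this fit. The fit was tested on simulated data in which all probe sets had the same variance, unlike the real ones. The number of arrays limits the precision.

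The members and lists were chosen with earlier results of these data known. All member probe sets are named. Of the 2 lists of partners and of pathway genes, up to 4 non-overlapping genes with the largest moderated statistic and Ltbr, Tnfrsf1a, Cxcr4, Ackr3, Tnfrsf11b, Nfkb2, Relb and Vcam1 are named with values; others named were chosen after their values were seen. Genes alike to a member were sought where its brightest probe set spanned at least 1 log2 unit, 3 per member. Alternatives were pseudocounts 1 and 64, the 60% brightest probe sets, the same with 1 probe set per gene, quantile normalization, median centring, no trend, array weights, a replicate block, no shared-sequence suffixes and leaving out each array.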

Additional observations from a re-analysis of the deposited data

How the results depend on the processing

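The count of member probe sets past the threshold, and of all probe sets, was 0 in limma under every alternative run, with a smallest adjusted p between 0.854 and 1.00. The count of members higher without overlap was 0 with the brightness filter, alone or together with 1 probe set per gene, with quantile normalization and with median centring; the count lower was 1 with either quantile normalization or median centring, where the member was Cxcl13. With 1 array left out, the counts ran from 1 to 6 higher and from 0 to 3 lower. Fewer arrays are easier to separate by chance. The shares of all probe sets without overlap given above hold for the full set of arrays only. No such share is given here with an array left out, so these counts cannot be read as many or few. Without a TNF-LTBR array the lone one is assumed to vary like the controls.

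The replicate block takes control replicate 3, which has no partner, out of the comparison. It turned the difference of Ccl19 to -0.051, Ccl21a to -0.023, Cxcl12 to 0.026 on its brightest and -0.21 on its dimmest probe set, the dimmer Cxcl13 to 0.040, Il7 to -0.15, Pdpn to -0.67, Ackr3 to -0.016 and Tnfrsf11b to 0.27, and it changed no call. The deviations of same-numbered arrays correlated at 0.12 for number 1 and -0.69 for number 2, so the numbers were not taken as pairs. Control 2 correlated with TNF-LTBR 1 at 0.69 and control 3 with TNF-LTBR 2 at 0.71. Deviations of the TNF-LTBR arrays are mirror images, so the values of each control differ only in sign. Array weights turned Il7 to -0.058, the dimmer Cxcl13 to 0.0049 and Tnfrsf11b to 0.052. Il7 was also -0.0014 with pseudocount 64, -0.016 with quantile normalization and -0.025 with median centring.

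Leaving out 1 array turned these differences, given as lowest and highest: Ccl19 -0.051 and 0.17, Ccl21a -0.023 and 0.31, Cxcl12 from its brightest to its dimmest probe set -0.18 and 0.15, -0.13 and 0.67, and -0.21 and 1.12, the dimmer Cxcl13 -0.13 and 0.085, Il7 -0.15 and 0.13 and its dimmer probe set -0.54 and 0.068, Pdpn -1.94 and 3.08, the brighter Tnfsf11 -0.11 and 0.42, Tnfsf13b -0.12 and 0.71 for 1445251_at and -0.98 and 2.21 for 1460255_at, Ackr3 -0.90 and 1.90, Tnfrsf11b -0.72 and 0.45, Ltbr -0.22 and 0.14, and Tnfrsf1a -0.33 and 0.22. The median of the partner list ran from -0.060 to 0.24, the latter without TNF-LTBR replicate 2. The brighter Cxcl13, Madcam1, the dimmer Tnfsf11 and the dimmest Tnfsf13b probe sets, and Nfkb2, Relb, Map3k14, Cxcl16, Vcam1, Il7r and Cxcr4, kept their sign under all alternatives that gave a value. The alternatives for list genes were chosen after seeing the data. Dim signal limits Ccl19, Ccl21a and Tnfsf11, and the cause of the changes was not tested.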
